A study of Mus musculus with 32 samples.

Results

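The genes described here encode the receptors for glutamate and GABA. They were chosen by symbol: the ionotropic glutamate receptor subunits (Gria, Grik, Grid and Grin), the metabotropic glutamate receptors (Grm), the GABA-A receptor subunits (Gabr followed by a letter) and the GABA-B receptor subunits (Gabbr1 and Gabbr2). The rule found 47 genes among the 22337 of each table. Of these, 26 are glutamate receptor genes, namely 4 AMPA, 5 kainate, 2 delta and 7 NMDA receptor subunits and 8 metabotropic receptors. The other 21 are GABA receptor genes, namely 6 alpha, 3 beta and 3 gamma subunits of the GABA-A receptor, 7 further GABA-A subunits and 2 GABA-B subunits.

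The study treated 5xFAD mice with near-infrared light given to the head and asked how the brain and its coverings responded. 5xFAD mice carry mutant human transgenes of familial Alzheimer's disease under the Thy1 promoter, which is active in neurons, and develop amyloid deposits. RNA was sequenced from the hippocampus (4 WT, 4 untreated 5xFAD and 4 light-treated 5xFAD samples), from the meninges (4, 3 and 3 samples of the same groups in that order), and from sorted meningeal lymphatic endothelial cells (mLECs; again 4, 3 and 3). The mice were males of 6 months on a C57BL/6J background, and the WT mice were littermates that lacked the transgenes. Light was given for 10 min in each session, with 3 sessions per week over 4 weeks. By the paper's methods, control mice were also anaesthetized and shaved, and were kept under indoor lighting for 10 min. Each sample was 1 piece of tissue or 1 pool of sorted cells, and samples are named below by group and replicate number.

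Glutamate opens tetrameric cation channels built from subunits of the AMPA, kainate or NMDA class and also acts on metabotropic receptors that signal through G proteins. GABA opens pentameric chloride channels built from GABA-A receptor subunits, usually alpha and beta subunits with gamma or delta, and acts on a GABA-B receptor made of Gabbr1 and Gabbr2. In hippocampus, AMPA and NMDA receptors carry excitatory transmission and its plasticity, while GABA-A and GABA-B receptors carry synaptic, tonic and slow inhibition.

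Hippocampal libraries held 13952825 to 23856476 counts, meningeal libraries 6601143 to 14708202 and mLEC libraries 14231415 to 24207326. A count of 0 allows up to 3 counts, that is 0.126 to 0.215 CPM in hippocampus, a limit that covers counting error only. Receptor genes took 0.379% to 0.624% of the counts of a hippocampal library, 0.0181% to 0.0718% of a meningeal one and 4.83e-05% to 0.0179% of an mLEC library. Levels are given as FPKM, that is fragments scaled by transcript length and library size, and differences as log2 fold changes with their standard error (SE) from edgeR's quasi-likelihood fit of the counts. A gene was tested in a tissue when it reached an FPKM of 1 in at least 3 samples, and was called changed at an adjusted p below 0.05 over all tested genes.

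Several libraries stood apart, and values without them are given where they changed a result. Among the hippocampal libraries, 5xFAD replicate 3 had a summed level of 10.1 FPKM over 4 marker genes of dentate granule cells, against 67.8 to 195 in the other 11. Its summed level over 4 CA1 markers was 57.0 FPKM, below the 79.4 of the next library. Light-treated replicate 2 had a summed level of 154 FPKM over 4 thalamic markers, against 20.4 to 44.4 elsewhere. The plot of these marker sums shows both libraries. In the meninges, WT replicate 1 had the highest summed level of 8 neuronal markers, 551 FPKM, and the lowest of choroid plexus markers. The transgene promoter's own gene, Thy1, was at 170 to 189 FPKM in WT hippocampus and at 407 to 622 and 434 to 522 in untreated and light-treated 5xFAD hippocampus, so the 12 libraries matched their labelled genotype on this gene.

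**Figure D1:**
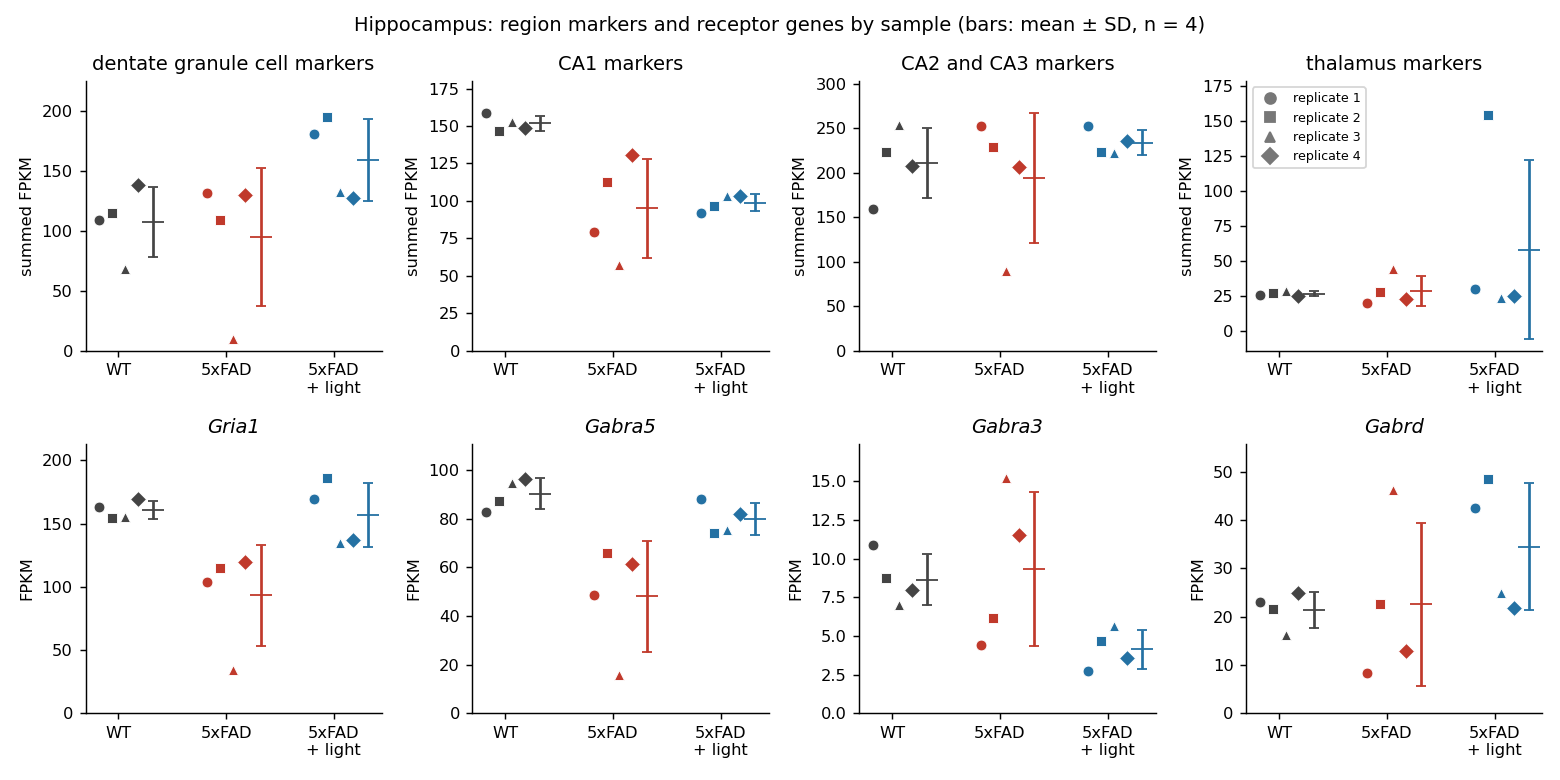
Summed FPKM of the marker genes of 4 regions (upper row) and FPKM of Gria1, Gabra5, Gabra3 and Gabrd (lower row) in the 12 hippocampal libraries. Points are single libraries with 1 symbol for each replicate number, and bars show the mean ± SD (n = 4). 5xFAD replicate 3 lies at 10.1 FPKM for dentate granule cells and light-treated replicate 2 at 154 FPKM for thalamus, each apart from the other libraries.

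Of the 5 receptor genes that were called in hippocampus, 3 have an entry in the RefSeq table of promoters, and these are shown because the genes moved in the same direction. Each sequence runs 5′ to 3′ from 250 bases before to 50 bases after an annotated transcription start on GRCm38.p6. Capitals mark the motifs searched on both strands: the GC box GGGCGG, the TATA box TATAAA, the cAMP response element core TGACG and the E box CACGTG. Grin1 is the minus strand of chr2:25319138-25319437, Gria2 the minus strand of chr3:80802786-80803085, and Gabrb2 the plus strand of chr11:42420190-42420489, the first of 3 listed starts.
Grin1: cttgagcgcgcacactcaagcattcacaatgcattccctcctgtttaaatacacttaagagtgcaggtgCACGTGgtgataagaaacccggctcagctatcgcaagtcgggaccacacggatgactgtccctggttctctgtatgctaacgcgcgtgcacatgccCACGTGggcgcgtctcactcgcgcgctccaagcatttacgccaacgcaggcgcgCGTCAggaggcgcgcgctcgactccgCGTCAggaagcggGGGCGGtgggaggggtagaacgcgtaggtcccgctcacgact
Gria2: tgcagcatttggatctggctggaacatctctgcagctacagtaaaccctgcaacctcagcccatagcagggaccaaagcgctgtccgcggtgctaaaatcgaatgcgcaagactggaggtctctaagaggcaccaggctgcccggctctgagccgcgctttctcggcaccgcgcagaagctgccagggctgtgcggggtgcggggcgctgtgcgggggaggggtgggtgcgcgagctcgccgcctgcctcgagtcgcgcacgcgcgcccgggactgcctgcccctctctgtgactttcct
Gabrb2: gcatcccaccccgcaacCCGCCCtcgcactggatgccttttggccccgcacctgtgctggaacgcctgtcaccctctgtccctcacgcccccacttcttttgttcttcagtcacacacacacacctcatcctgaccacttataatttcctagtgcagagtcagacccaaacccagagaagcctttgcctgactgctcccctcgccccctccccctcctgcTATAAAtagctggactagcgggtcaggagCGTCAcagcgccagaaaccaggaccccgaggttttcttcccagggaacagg
The Grin1 window held 1 GC box, 2 such cores and 2 E boxes. The Gabrb2 window shown held 1 GC box, 1 TATA box and 1 such core, and the Gria2 window held none of the 4. The windows at the other listed Gabrb2 starts also held none of the 4. The GC box was found in 19 of the 39 promoters listed for 32 of the receptor genes (48.7%), against 35.7% of all 32851 promoters. The TATA box was in 4 of the 39 (13.6% of all promoters), the TGACG core in 5 (20.8%) and the E box in 1 (7.15%). The 3 promoters thus shared no motif of this palette.

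In WT hippocampus the receptor genes covered a wide range of levels. Gria2, the AMPA subunit that lowers the channel's calcium permeability, was the highest with 182, 185, 182 and 183 FPKM. Gria1, the AMPA subunit that pairs with it in pyramidal cells, followed at 161 FPKM on average and did not overlap it. Gabra5, an alpha subunit of extrasynaptic receptors that is rich in hippocampus, was at 90.3 FPKM. Grin1, the subunit that every NMDA receptor contains, was at 74.6 FPKM and Gabbr1, the GABA-binding subunit of the GABA-B receptor, at 72.8 FPKM, and the values of this pair overlapped. Gabrb1 and Gabra4 were at 51.5 and 48.8 FPKM, and Grin2b, Grm5 and Gria3 lay together at 39.5, 39.4 and 39.1 FPKM.

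**Figure D2:**
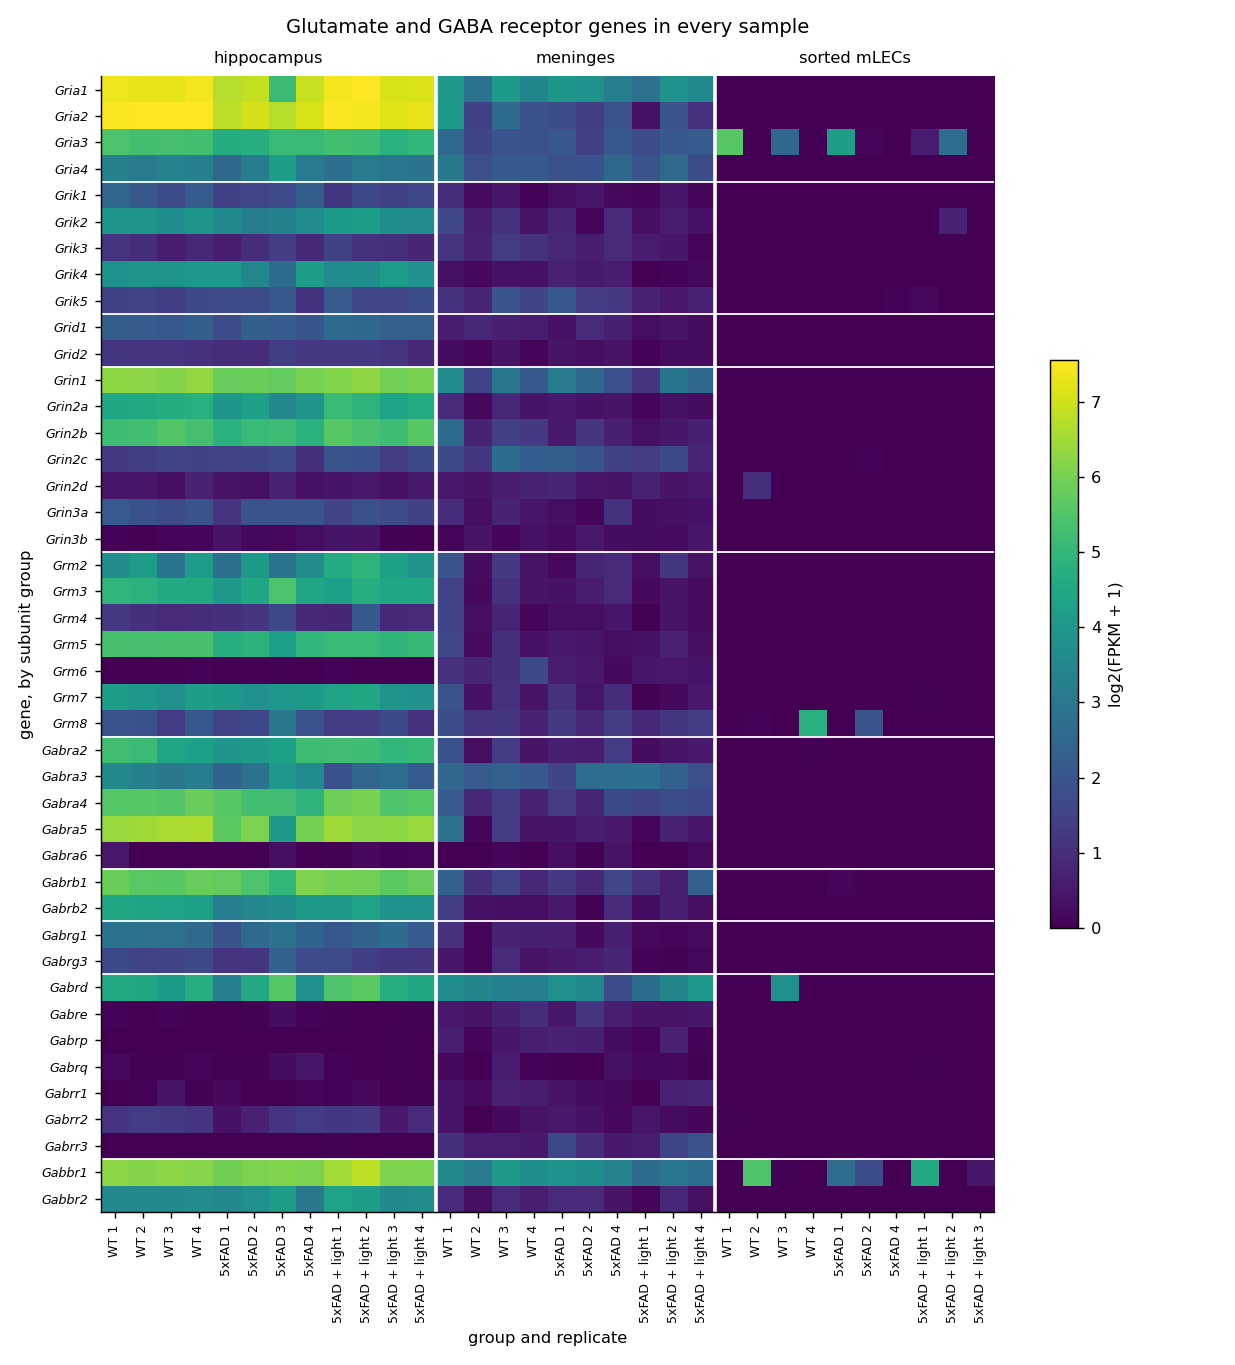
Level of 43 of the 47 receptor genes (rows, by subunit class) in each of the 32 samples (columns, by tissue, group and replicate), as log2(FPKM + 1). The mLEC samples come from a separately normalized table. Hippocampal columns are high for most classes, meningeal columns are low and mLEC columns are mostly at 0.

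By class, the gene with the highest mean WT level was Gria2 among AMPA subunits, Grik4 among kainate subunits, Grid1 among delta subunits, Grin1 among NMDA subunits and Grm5 among metabotropic receptors. Gabrb1 led the beta subunits, Gabrd the further GABA-A subunits and Gabbr1 the GABA-B subunits. A total of 38 receptor genes passed the filter in hippocampus, and none of them passed through 1 group alone. The other 9 never exceeded 0.67 FPKM in a hippocampal library. They included Gabra6, an alpha subunit of cerebellar granule cells, at 0 to 0.42 FPKM, and Grm6, the receptor of retinal bipolar cells, at 0 to 0.05 FPKM.

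The comparison of untreated 5xFAD with WT hippocampus asks how the receptor genes stood in the disease model without light treatment. Gria2, Grin1, Grin2a, Grm5 and Gabrb2 fell, and no receptor gene was called higher. That was 5 of 38, all lower, where 8.54% of all 12981 tested genes were called in either direction and 2.06% were called lower. The median log2 fold change of the 38 was -0.24, against 0.015 over all tested genes, with 27 below 0, 11 above 0 and a range from -0.90 to 0.47. Groups that did not overlap, with every 5xFAD library below every WT library, were found for 13 of the 38, against 5.79% of all tested genes, and for 0 in the other direction. In bulk tissue, fewer cells of a type and less RNA per cell cannot be told apart. The summed level of the 47 genes was 1213 to 1271 FPKM in WT, 834 to 1031 in untreated 5xFAD and 1048 to 1355 in light-treated 5xFAD hippocampus.

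Among AMPA subunits, Gria2 (GRCm38 chr3:80681450-80802835, minus strand) was at 111, 132, 104 and 135 FPKM in untreated 5xFAD, each far below the narrow WT range given above. Its log2 fold change was -0.56 ± 0.10 (SE, n = 4 and 4) with an edgeR adjusted p of 0.0033. Gria3, another AMPA subunit, had a log2 fold change of -0.36 with an adjusted p of 0.0694 and did not pass. Gria1 was at 163, 154, 155 and 169 FPKM in WT and at 104, 115, 34.1 and 120.0 FPKM in untreated 5xFAD, and is named for its low value in replicate 3, which was seen before it was named. The groups did not overlap, but the spread was wide and the log2 fold change of -0.76 did not pass, with an edgeR adjusted p of 0.110.

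Among NMDA subunits, Grin1 (chr2:25291181-25319187, minus strand) was at 75.7, 73.8, 69.9 and 78.9 FPKM in WT and at 54.8, 57.0, 52.8 and 64.2 FPKM in untreated 5xFAD. All 4 5xFAD libraries were lower, with a log2 fold change of -0.37 ± 0.086 (SE) and an edgeR adjusted p of 0.0161. Grin2a (chr16:9567898-9995560, minus strand), the subunit that prevails in adult synapses, was at 21.97, 22.9, 24.5 and 25.6 FPKM in WT and at 15.1, 18.1, 10.2 and 14.3 FPKM in untreated 5xFAD. These groups did not overlap either, and the log2 fold change was -0.66 ± 0.17 (SE) with an edgeR adjusted p of 0.0276. Grin2b, the subunit of earlier development, was at 36.0, 37.5, 45.3 and 39.0 FPKM in WT and at 27.0, 33.4, 34.8 and 27.2 FPKM in untreated 5xFAD. Its groups were also apart, but with a log2 fold change of -0.36 and an edgeR adjusted p of 0.130 it did not pass.

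Among metabotropic receptors, Grm5 (chr7:87584168-88134907, plus strand), which couples to Gq and to calcium release, was at 39.5, 38.7, 39.9 and 39.6 FPKM in WT and at 25.1, 28.7, 18.4 and 30.5 FPKM in untreated 5xFAD. The WT libraries lay within a narrow band and all 5xFAD libraries lay below it, with a log2 fold change of -0.56 ± 0.11 (SE) and an edgeR adjusted p of 0.0065. None of the other 6 tested metabotropic receptors was called, and their class ran from the value of Grm5 to 0.47 for Grm8. Of the 5 kainate and 2 delta subunits, 0 were called, with medians of -0.24 and -0.07. Grik4, a high-affinity kainate subunit of CA3, was at 13.6, 14.1, 13.9 and 15.3 FPKM in WT and at 15.1, 10.54, 5.33 and 17.4 FPKM in untreated 5xFAD, so the groups overlapped.

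Among GABA-A receptor subunits, Gabrb2 (chr11:42419757-42629028, plus strand) was at 21.7, 20.1, 19.99 and 18.4 FPKM in WT and at 8.28, 10.3, 12.2 and 16.1 FPKM in untreated 5xFAD. All 5xFAD libraries were lower, with a log2 fold change of -0.77 ± 0.15 (SE) and an edgeR adjusted p of 0.0064. Gabrb1, at 56.6, 48.1, 46.8 and 54.3 FPKM in WT, was at 52.5, 41.8, 30.8 and 67.4 FPKM in untreated 5xFAD, and overlapped.

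None of the 5 tested alpha subunits was called. Gabra5 was at 82.8, 87.1, 94.7 and 96.5 FPKM in WT and at 48.8, 66.1, 15.8 and 61.4 FPKM in untreated 5xFAD, and like Gria1 is named for replicate 3 after its values were seen. Its log2 fold change of -0.90 had an edgeR adjusted p of 0.0749. Gabrd, which replaces gamma in receptors of tonic inhibition and is rich in dentate granule cells, was at 23.0, 21.6, 16.3 and 24.9 FPKM in WT and at 8.35, 22.7, 46.2 and 12.96 FPKM in untreated 5xFAD. Its highest untreated value thus came from replicate 3, the library with the lowest dentate marker sum.

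**Figure D3:**
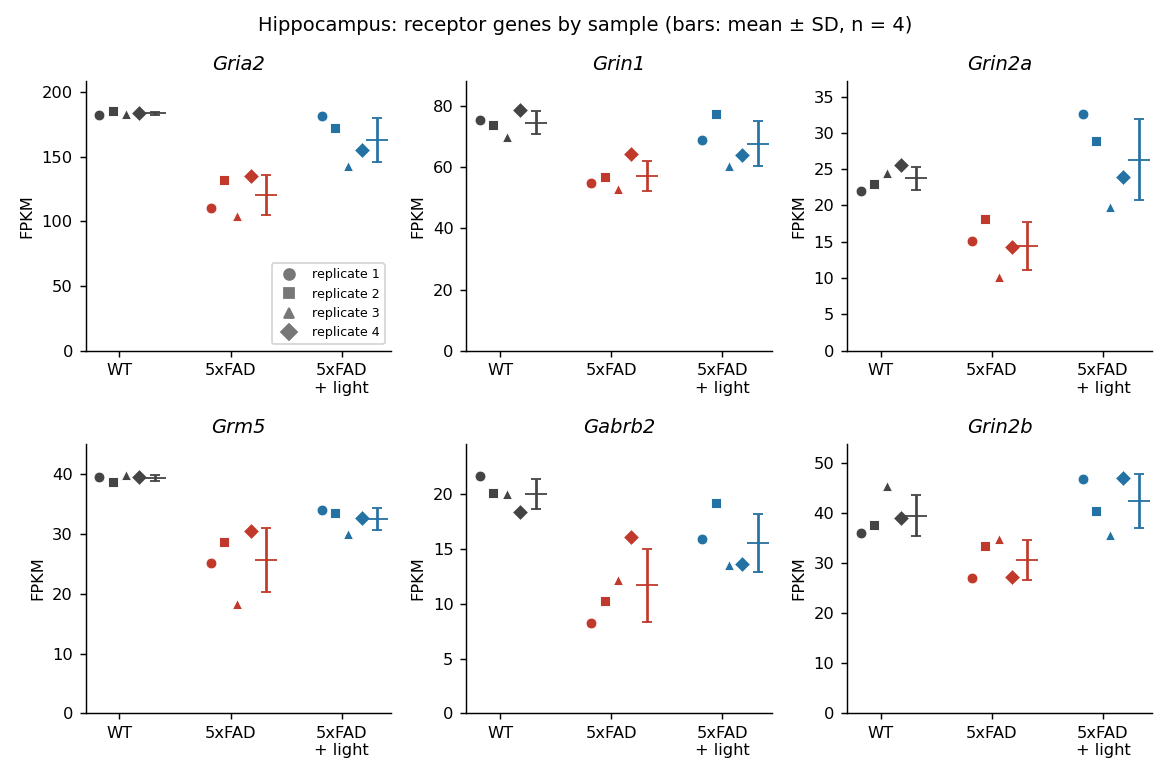
FPKM of Gria2, Grin1, Grin2a, Grm5, Gabrb2 and Grin2b in WT, untreated 5xFAD and light-treated 5xFAD hippocampus. Points are single mice with 1 symbol for each replicate number, and bars show the mean ± SD (n = 4). For all 6 genes the untreated 5xFAD points lie below the WT points.

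Without 5xFAD replicate 3, 9 receptor genes were called, all lower: the same 5 with 4 more, among them Gabra5, Gria1 and Gria3. The median of the 38 was then -0.32. Over all tested genes 8.79% were called without that library. DESeq2 also called 9, against 13.3% of all tested genes. Without WT replicate 4, only Gabrb2, Gria2 and Grm5 were called, and without WT replicate 2 or 3 Grin2a was not. None of the 5 reached a 2-fold change.

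Markers of other cell types moved in the same comparison. All 6 microglial markers were called higher, with a summed level of 159 to 183 FPKM in WT and 415 to 622 FPKM in untreated 5xFAD, and 3 of 6 astrocyte markers were called higher. Of 8 neuronal markers, 8 had a log2 fold change below 0, with a median of -0.18 and 0 called, and their summed level was 2626 to 2885 FPKM in WT and 2299 to 2657 FPKM in untreated 5xFAD. All 4 dentate granule cell markers lay below 0, with a median of -0.88. Their summed levels were 67.8 to 138 FPKM in WT and 131, 109, 10.1 and 130 FPKM in untreated 5xFAD. Only replicate 3, at 10.1 FPKM, lay outside the WT range. Of 4 CA1 markers, 3 lay below 0, with a median of -0.52 and summed levels of 147 to 159 FPKM in WT and 57.0 to 131 FPKM in untreated 5xFAD. None of the dentate or CA1 markers was called. The part of these shifts in the receptor values was not tested.

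The comparison of light-treated with untreated 5xFAD hippocampus asks how the treatment moved these genes. By edgeR, 0 of the 38 receptor genes were called, where 0.455% of all tested genes were, and 20 had an unadjusted p below 0.05, 17 of them higher and 3 lower after light, against 18.3% of all tested genes. DESeq2 called 8, against 4.94% of all tested genes: 6 higher, among them Gria2, Grid1, Grin2a, Grin2b and Grm2, and 2 lower, Gabra3 and Grm8. The median log2 fold change was 0.29, against -0.016 over all tested genes, with 28 of 38 above 0 and a range from -1.22 to 1.09. For 7 genes every light-treated library lay above every untreated one, against 3.66% of all tested genes, and for 0 the reverse held. These 7 were Grin2a, Grin2b, Gria2, Grid1, Grik2, Gria1 and Gabra5. This comparison and the one with WT above share the 4 untreated 5xFAD libraries, so a low value in one of those libraries lowers one difference and raises the other.

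Grin2a came closest to the threshold. It was at 32.6, 28.8, 19.8 and 23.9 FPKM in light-treated hippocampus, above all untreated values and partly above WT, with a log2 fold change of 0.82 ± 0.17 (SE, n = 4 and 4) and an edgeR adjusted p of 0.0528. Grin2b was at 46.7, 40.5, 35.5 and 46.9 FPKM after light, a log2 fold change of 0.61 ± 0.14 (SE) with an edgeR adjusted p of 0.0687. Grin1 was at 68.9, 77.6, 60.5 and 64.2 FPKM after light and overlapped the untreated values.

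Gria2 was at 181, 172, 143 and 155 FPKM after light, between the untreated and the WT ranges. Its log2 fold change of 0.42 ± 0.10 (SE) had an edgeR adjusted p of 0.0745. Grid1, a delta subunit that joins cerebellins at synapses, was at 2.32, 3.83, 3.58 and 3.03 FPKM in untreated and at 5.17, 4.78, 3.99 and 3.98 FPKM in light-treated hippocampus, with an adjusted p of 0.123.

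Some receptor genes lay lower after light. Gabra3, an alpha subunit abundant in the developing brain and in monoaminergic neurons, was at 10.9, 8.75, 7.01 and 7.97 FPKM in WT, at 4.39, 6.15, 15.2 and 11.5 FPKM in untreated 5xFAD and at 2.71, 4.68, 5.63 and 3.57 FPKM after light. Its highest value was that of untreated replicate 3, and the log2 fold change of -1.16 ± 0.33 (SE) had an edgeR adjusted p of 0.115. Grm8, a presynaptic receptor named after its values were seen, was at 1.95, 2.09, 7.09 and 2.84 FPKM in untreated and at 1.48, 1.60, 2.22 and 1.13 FPKM in light-treated hippocampus, so that here too replicate 3 held the top value.

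Among the class leaders, Gabrd was at 42.5, 48.6, 24.9 and 21.8 FPKM and Gabbr1 at 88.8, 112, 67.5 and 65.5 FPKM after light, both wider than in WT. Gabbr1 in WT was at 75.0, 70.3, 74.5 and 71.4 FPKM and in untreated 5xFAD at 59.5, 65.3, 69.1 and 65.2 FPKM. Neither was called in any hippocampal comparison. Grm5, Gabrb2 and Gabrb1 after light reached 30.0 to 34.0, 13.5 to 19.2 and 49.5 to 61.3 FPKM, and Grik4 11.5 to 16.6 FPKM, all overlapping the untreated range.

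**Figure D4:**
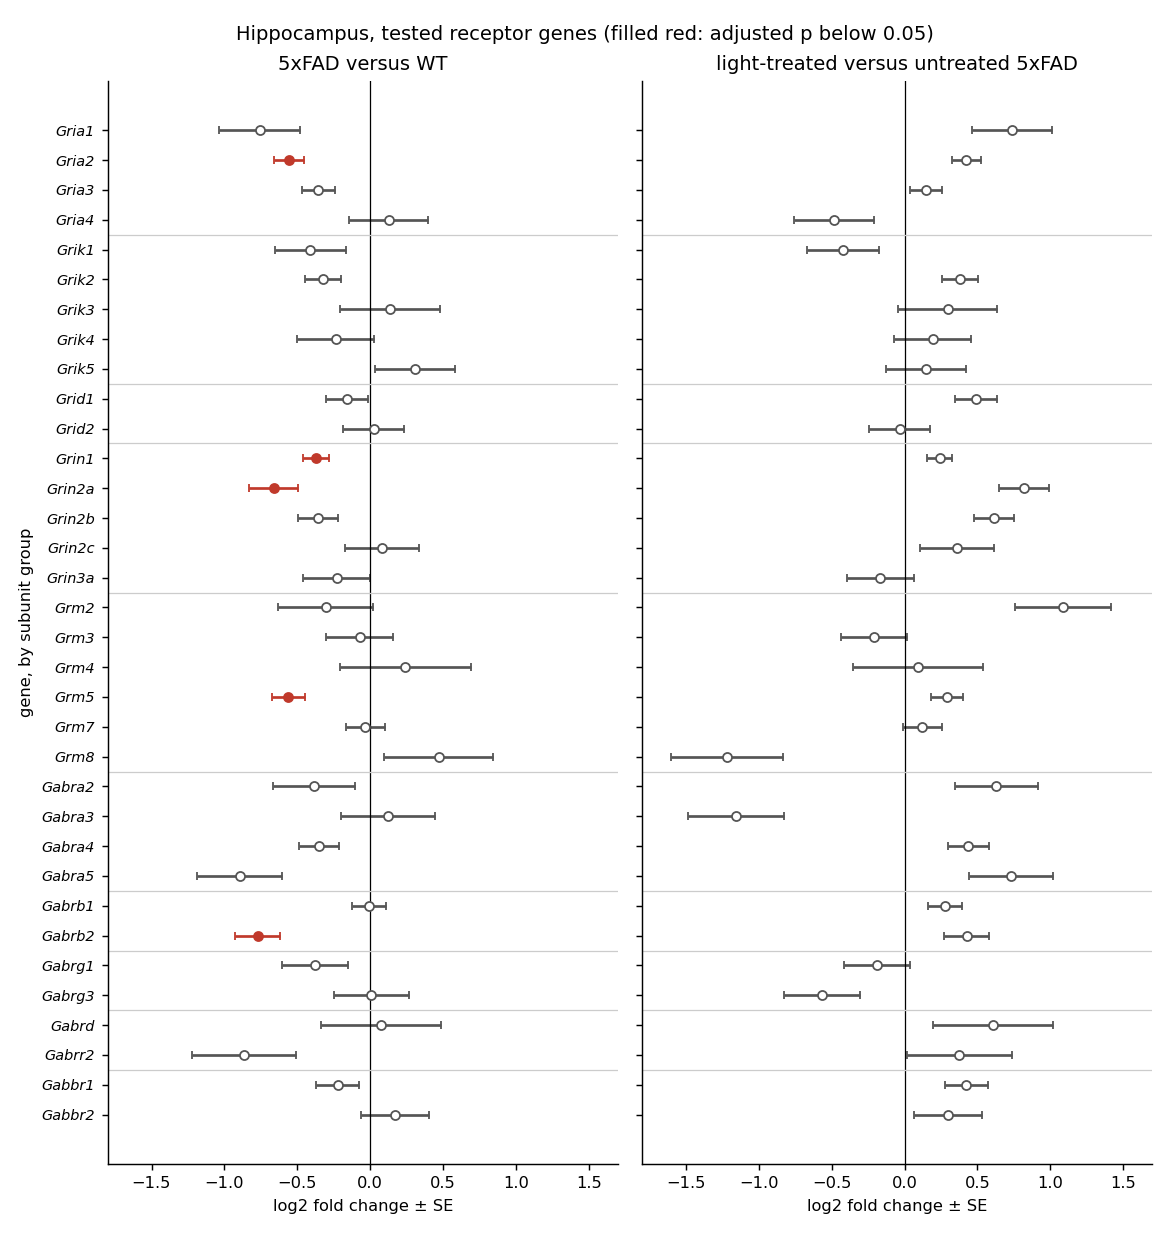
Log2 fold change of 34 of the 38 tested receptor genes in hippocampus, for untreated 5xFAD against WT and for light-treated against untreated 5xFAD, with bars of 1 SE from edgeR and filled red points for an adjusted p below 0.05. The comparisons share the untreated 5xFAD libraries. Of the genes plotted, 23 lie below 0 in the first, 5 of them called lower, and 25 lie above 0 in the second, with 0 called.

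The number of calls after light depended on single libraries. It was 5 without untreated 5xFAD replicate 2, 2 without light-treated replicate 3 and 0 without each of the other 6 libraries. Without untreated replicate 3 and light-treated replicate 2 together, 0 were called, 13 had an unadjusted p below 0.05, 30 were above 0 and the median was 0.24. All 4 dentate granule cell markers had a log2 fold change above 0 after light, with a median of 1.67 and 0 called, and all 6 interneuron markers had one below 0, with a median of -0.98. All 5 choroid plexus markers (median -3.31), all 7 markers of leptomeningeal fibroblasts (-1.34) and all 6 astrocyte markers (-0.26) also lay below 0. All 4 thalamic markers (0.92) and all 4 CA2 and CA3 markers (0.26) lay above 0. Of the CA1 markers, 2 lay above and 2 below 0. None of these markers was called. Dentate sums were 131, 109, 10.1 and 130 FPKM in untreated and 128 to 195 FPKM in light-treated 5xFAD, the lowest being untreated replicate 3. Thalamic sums were 20.4 to 44.4 FPKM in untreated 5xFAD and 29.9, 154, 23.4 and 25.4 FPKM after light, the highest being light-treated replicate 2. Choroid plexus sums were 3216, 2940, 698 and 208 FPKM in untreated 5xFAD and 63.6 to 245 FPKM after light. Neuronal markers had a median of -0.07, with 3 of 8 above 0. The part of these markers in the receptor values was not tested.

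Against WT, light-treated 5xFAD hippocampus showed 0 of 38 receptor genes called by edgeR, where 3.59% of all tested genes were, and 10 with an unadjusted p below 0.05, of which 7 were lower and 3 higher, against 16.7% of all tested genes. DESeq2 called 2, Gabra3 and Grik1, both lower, against 6.73% of all tested genes. A fit of these groups alone called 4, all lower, among them Gabra3, Gabrg3 and Grik1, against 8.54% of all tested genes. The median was -0.016, with 18 of 38 above 0. Without light-treated replicate 2, 0 were called, 5 had an unadjusted p below 0.05 and the median was -0.09. This comparison shares the WT libraries with the first and the light-treated libraries with the second. All 4 CA1 markers lay below 0 in it, with a median of -0.64 and Mpped1 called lower. Their summed level was 147 to 159 FPKM in WT and 92.1 to 104 FPKM after light. Of the CA2 and CA3 markers, 2 lay above and 2 below 0. Dentate sums were 67.8 to 138 FPKM in WT and 128 to 195 FPKM after light, and microglial sums 159 to 183 and 328 to 535 FPKM. Astrocyte sums were 1414 to 1684 FPKM in WT and 1984 to 2583 FPKM after light. Of 6 astrocyte markers, 4 lay above and 2 below 0, with Gfap called higher. The part of these shifts in the receptor values against WT was not tested.

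Grik1, a kainate subunit of interneurons and other cells, was at 4.57, 3.31, 2.29 and 3.58 FPKM in WT and at 1.34, 2.15, 1.83 and 2.07 FPKM in light-treated 5xFAD, with untreated values of 1.77, 2.03, 2.38 and 3.89 FPKM between and across them. Its log2 fold change against WT was -0.83 ± 0.25 (SE) with an edgeR adjusted p of 0.0914, from 81 to 372 counts per library. Gabra3 had a log2 fold change against WT of -1.04 with an edgeR adjusted p of 0.116, and the groups did not overlap. Grm5 had one of -0.27 with an edgeR adjusted p of 0.237. The 4 light-treated values of Grm5 thus lay below all WT values.

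Gabrg1, a gamma subunit, was at 6.45, 6.14, 6.22 and 5.08 FPKM in WT, at 2.65, 5.02, 6.34 and 4.38 FPKM in untreated and at 3.23, 4.24, 5.31 and 3.62 FPKM in light-treated 5xFAD, with an adjusted p against WT of 0.219. Grm2, a presynaptic receptor of dentate granule cells, was at 12.2, 16.6, 6.58 and 16.7 FPKM in WT, at 5.87, 16.3, 6.56 and 12 FPKM in untreated and at 24.01, 28.9, 19.1 and 13.95 FPKM in light-treated 5xFAD. It overlapped in both comparisons and had an edgeR adjusted p of 0.240 against WT. Grid1 was at 3.67, 3.55, 3.24 and 3.85 FPKM in WT, just below the light-treated values, with an edgeR adjusted p of 0.265.

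Pairs of subunits that define receptor types were also compared as the log2 ratio of their FPKM within each library, which does not move with library size. None of 9 comparisons passed an adjusted p of 0.05 by exact two-sided permutation, where 4 against 4 libraries allow no p below 0.0286. The ratio of Grin2a to Grin2b had a mean of -0.73 in WT, -1.10 in untreated and -0.71 in light-treated hippocampus. Untreated 5xFAD and WT differed by -0.37 ± 0.23 (SE), with an exact permutation p of 0.0857 (adjusted 0.257), and replicate 3 alone stood at -1.77. Without replicate 3 the difference was -0.15, and that between light-treated and untreated 5xFAD went from 0.40 to 0.18. The ratio of Gria1 to Gria2 differed by -0.32 ± 0.36 (SE) between these groups and by 0.04 without replicate 3.

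**Figure D5:**
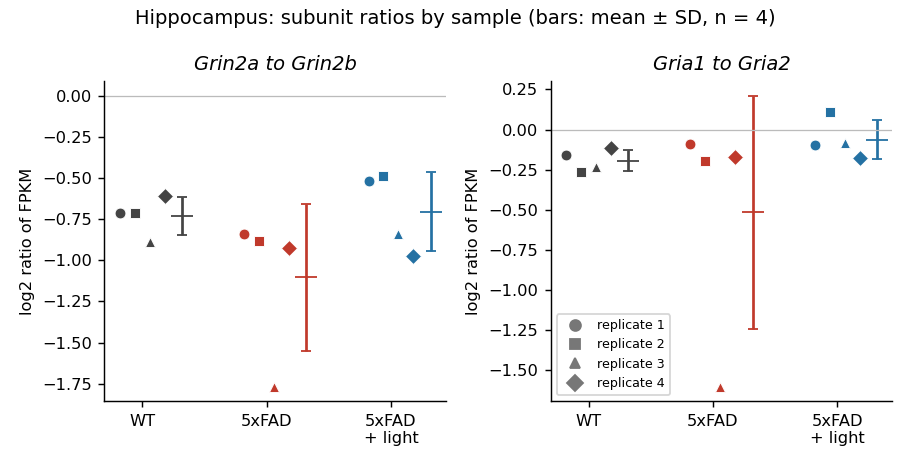
Log2 ratio of FPKM for Grin2a to Grin2b and Gria1 to Gria2 in each hippocampal library, with 1 symbol for each replicate number. Bars show the mean ± SD (n = 4). Untreated 5xFAD replicate 3 lies apart in both ratios, at -1.77 and -1.60.

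Genes of the same receptor systems were counted in 4 partner lists in hippocampus. For untreated 5xFAD against WT, the counts below stand beside 8.54% of all tested genes called in either direction and 2.06% called lower. Of 14 tested auxiliary proteins of AMPA and kainate receptors, 1 rose in untreated 5xFAD against WT and 1 fell: Cacng4, a TARP that escorts AMPA receptors, by 0.76 ± 0.21 (SE, edgeR adjusted p 0.0408), and Neto1, a kainate and NMDA receptor partner, by -0.45 ± 0.11 (SE, edgeR adjusted p 0.0260). Of 15 excitatory scaffold proteins, 1 fell, Dlgap1, which binds the scaffold Dlg4. It was at 121, 121, 112 and 134 FPKM in WT and at 68.4, 90.4, 72.5 and 92.5 FPKM in untreated 5xFAD, a log2 fold change of -0.51 with an edgeR adjusted p of 0.0028. The WT and 5xFAD values of Dlgap1 did not overlap.

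Of 9 GABA receptor anchoring and auxiliary proteins, 2 fell in the same comparison. Gphn, gephyrin, the scaffold of inhibitory synapses, fell by 0.36 on the log2 scale (edgeR adjusted p 0.0166). Of 13 genes of transmitter synthesis, packing and uptake, 2 fell, Slc1a1, a neuronal glutamate transporter, by 0.74 (edgeR adjusted p 0.0300) and Gad1, an enzyme of GABA synthesis, by 0.46 (edgeR adjusted p 0.0192). The medians of the 4 lists were -0.24, -0.11, -0.10 and -0.01.

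After light, 0 genes of the 4 lists were called against untreated 5xFAD by edgeR, where 0.455% of all tested genes were. The list medians were 0.31, 0.18, 0.22 and -0.07. Against WT, 3 genes of the 4 lists were called, where 3.59% of all tested genes were. All 3 were of GABAergic transmission and lower in light-treated 5xFAD. They were Gad1 by -0.53 (edgeR adjusted p 0.0138), Gad2 by -0.58 (0.0110) and Slc32a1, the vesicular GABA transporter, by -0.82 (0.0236). Slc32a1 was at 6.64, 6.73, 6.39 and 6.33 FPKM in WT and at 3.48, 3.68, 3.79 and 3.72 FPKM after light, with untreated values from 3.72 to 8.57. These 3 genes are made by interneurons, whose summed marker level was 1613 to 2018 FPKM in WT and 981 to 1413 FPKM after light, and the part of that difference was not tested.

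Many GABA-A subunit genes stand in clusters, and the neighbours on chromosome 5 are given as an example. On chromosome 5 (70751047 to 72149037), Gabrg1, Gabra2 and Gabra4 had log2 fold changes of -0.38, -0.39 and -0.35 in untreated 5xFAD against WT hippocampus, and Gabrb1 had -0.01. After light the chromosome 5 values were -0.19, 0.63, 0.44 and 0.28 in that order. The differences between these neighbours were not tested, and none of the 4 was called. Gabra4 and Gabrb1 share 46 exon bases, under 1% of each, and the libraries carried no strand.

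In the meninges, receptor genes were low, and 24 of 47 passed the filter. Grik3 and Grm6 passed through the WT libraries alone, so for them the filter favoured a lower value against WT. The 23 genes that did not pass reached at most 6.18 FPKM, for Gabra5 in WT replicate 1. By edgeR, 0 of 24 were called in untreated 5xFAD against WT (0% of 14318 tested genes), 0 in light-treated against untreated 5xFAD (0.014%) and 0 in light-treated 5xFAD against WT (0.014%). Unadjusted p-values below 0.05 were found for 1, 3 and 10 of the 24, against 4.01%, 12.7% and 16.4% of all tested genes. DESeq2 called 0, 1 and 4, against 0%, 0.552% and 3.05% of all tested genes. The medians were -0.21, -0.27 and -1.01, and with 1 library left out at a time they ran from -0.44 to 0.12, from -0.67 to -0.05 and from -1.30 to -0.39. Without WT replicate 1, the median of untreated 5xFAD against WT turned to 0.12, with 14 of 24 above 0 in place of 4, and that of light-treated 5xFAD against WT was -0.39. The lowest and highest medians of light-treated against untreated 5xFAD were those without light-treated replicates 2 and 1.

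Gabbr1 was the leading meningeal gene of the light comparisons. It was at 10.8, 7.50, 15.6 and 12.4 FPKM in WT, at 13.6, 11.9 and 9.25 FPKM in untreated and at 5.39, 6.86 and 5.57 FPKM in light-treated 5xFAD, with the light-treated values below all others. The log2 fold change against untreated 5xFAD was -1.14 ± 0.28 (SE, n = 3 and 3) with an edgeR adjusted p of 0.286, and DESeq2 called it. The 4 genes that DESeq2 called lower against WT included Gabbr1, Grik3 and Grin2b. Grik3 passed the filter through the WT libraries alone, which favoured this direction. Grin2b was at 5.34, 0.65, 1.72 and 1.41 FPKM in WT, at 0.44, 1.27 and 0.59 FPKM in untreated and at 0.26 to 0.58 FPKM in light-treated 5xFAD. Without the WT libraries it would not have passed, so the filter favoured a lower value against WT for it too. Without WT replicate 2, edgeR called Gabbr1 and Grin2b against WT. WT replicate 1 held both the highest neuronal marker sum of the meninges and 15.65 FPKM of Gria2, against 0.29 to 5.22 FPKM in the other 9 libraries.

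WT meninges and WT hippocampus were compared in 1 fit of the 22 samples, in which 40 receptor genes were tested. Of these, 33 were lower and 2 higher in meninges, 35 called in all, where 73% of all 15132 tested genes were called. Among the 22 genes that passed the filter in both tissues, 18 were lower and 0 higher, with a median of -3.44. Gria2 was the lowest of these 22, by -4.82 ± 0.56 (SE, edgeR adjusted p 1.65e-07). The 2 genes higher in meninges were Gabrr3 and Grm6, by 6.30 and 6.41, and each was at or near 0 in hippocampus and at most 2.83 and 2.19 FPKM in meninges. Both passed the filter in meninges only, and 15 of the lower genes passed in hippocampus only, so for these the filter fixed the direction. The genes not called were Grik3, Grik5, Grin2c, Grm4 and Grm8. Pineal markers summed to 75.1 to 707 FPKM in meninges and to at most 0.74 FPKM in hippocampus, and the part of such tissue in these levels was not tested.

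The effect of light was set against itself in the 2 tissues by an interaction term. For 3 of 40 receptor genes it differed, all with a higher value in hippocampus than in meninges, where 1.05% of all tested genes were called, and 13 had an unadjusted p below 0.05, against 19.8% of all tested genes. Gabbr1 differed by 1.58 ± 0.31 (SE, edgeR adjusted p 0.0231), Grik4 by 2.98 ± 0.64 (0.0385) and Grid1 by 1.82 ± 0.40 (0.0398). Grik4 was at 0.47 to 0.69 FPKM in untreated and 0.02 to 0.12 FPKM in light-treated meninges, which rested on 19 to 20 and 1 to 7 counts. Grid1 was at 0.30 to 0.89 and 0.19 to 0.33 FPKM there. Grik4 and Grid1 reached 1 FPKM in 0 of the 10 meningeal libraries and were tested only because they passed the filter in hippocampus, so of the 3 genes only Gabbr1 passed it in both tissues. By limma on log2(FPKM + 1), 0 were called. No call was made without light-treated hippocampal replicate 1 or without untreated meningeal replicate 2, only Grid1 was called without untreated meningeal replicate 1, only Grik4 without light-treated meningeal replicate 4, and only Gabbr1 without light-treated replicate 2 or 4 of hippocampus or 1 or 2 of meninges. Grid1 alone of the 3 was lost without untreated hippocampal replicate 1 or 4. The effect of 5xFAD against WT differed between the tissues for 0 of 40 by edgeR, where 1.74% of all tested genes were called. Of the 40, 1 had an unadjusted p below 0.05, against 12.8% of all tested genes.

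In mLECs, 29 of the 47 receptor genes were listed at 0 in all 10 libraries, 18 had any value above 0, and 5 reached 1 FPKM in any library. Values differed widely between libraries of a group. Gria3 was at 47.5 and 4.83 FPKM in WT replicates 1 and 3, at 17.9 FPKM in untreated replicate 1 and at 5.50 FPKM in light-treated replicate 2. Gabbr1 was at 43.0 FPKM in WT replicate 2 and at 23.7 FPKM in light-treated replicate 1, with all others at most 5.53 FPKM. Gabrd was at 12.9 FPKM in WT replicate 3, Grm8 at 26.9 FPKM in WT replicate 4 and 2.78 FPKM in an untreated library, and Grin2d at 1.02 FPKM in WT replicate 2.

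Only Gria3 and Gabbr1 could be tested in mLECs, and edgeR called neither in untreated 5xFAD against WT or in light-treated against untreated 5xFAD (0% of 8188 tested genes in both), with 0 at an unadjusted p below 0.05 (3.81% and 4.01% of all tested genes) and 0 called by DESeq2 (2.26% and 4.36%). The biological coefficient of variation of this fit was 1.89, against 0.198 in hippocampus. The lymphatic endothelial markers varied widely between mLEC libraries, from 227 to 9784 FPKM in sum, and Lyve1 was listed at 0 in WT replicates 2 and 4. Prox1 was listed at 0 in 3 of the 10 libraries.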

How the data were processed

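RNA-seq libraries were made by Smart-seq2, which does not mark strand, from individual hippocampi, meninges and sorted mLECs, 32 samples in 9 groups. The authors deposited, per gene and sample, unscaled estimated counts, whose values look like the expected counts that RSEM makes. Beside them the deposited tables give FPKM, which the authors scaled by transcript length and library size. The paper names fastp, RSEM and DESeq2, and the submitters' processing notes name Trimmomatic, HISAT2, StringTie, DESeq2 and mm10 with no role or version, so which steps made these tables is not given in the sources used here. Hippocampus and meninges share 1 table, and mLECs have another, normalized separately.

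Counts were rounded and tested in R 4.3.3 with edgeR 4.0.16 (TMM, quasi-likelihood), with the 3 groups of a tissue in 1 fit. Genes with FPKM of at least 1 in 3 samples were tested. The p-values were adjusted by Benjamini-Hochberg over all tested genes, and a call needed an adjusted p below 0.05. The SE was the absolute log2 fold change divided by the square root of F. Tissues were compared, and effects set against each other, in 1 fit of the 22 samples. Ratios of FPKM were tested by exact two-sided permutation. The steps were tested on simulated counts.

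Values per sample are given for genes called in a hippocampal comparison, for the 6 smallest p-values where a comparison had no call, and for the highest gene of each class. Some genes were counted but are not reported here by name. Other names were chosen after their values were seen. The members and the lists were chosen with earlier results of these data known. Alternatives were median-of-ratios scaling, no filter, only the compared groups, a replicate block, DESeq2 1.42.0, limma 3.58.1 on log2(FPKM + 1) and log2(FPKM + 0.1), a 2-fold threshold and leaving out each replicate. Leaving out 5xFAD replicate 3 and light-treated replicate 2 of hippocampus together was chosen after seeing the data. Replicates did not agree within sampling noise, so each counted as 1. Symbols of 2 genes differ between the tables, which were joined by gene identifier. Positions are from GENCODE vM21 on GRCm38, and promoters from RefSeq on GRCm38.p6.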

Additional observations from a re-analysis of the deposited data

Results flagged for a closer look

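Of 51 groups of 4 values tested for a library far from the others, 2 had one by Dixon's test at the 95% level, which chance gives in about 1 of 20 groups. In untreated 5xFAD hippocampus, replicate 3 had a log2 ratio of Grin2a to Grin2b of -1.77, against -0.93 to -0.84 in the others, and a log2 ratio of Gria1 to Gria2 of -1.60, against -0.20 to -0.091. That library also had the lowest marker sums of dentate granule cells, CA1 and CA2 or CA3 pyramidal cells, and the part of these in its ratios was not tested.

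The effect of light differed between hippocampus and meninges by edgeR's interaction term for Gabbr1 (1.58 on the log2 scale), Grid1 (1.82) and Grik4 (2.98). In meninges Grik4 and Grid1 stayed below 1 FPKM in all 10 libraries, so they were tested only because they passed the filter in hippocampus.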

How the results depend on the processing

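Counts of called receptor genes moved by over 1.5 times with the settings named here, and the cause was not tested. The meningeal medians turned or shrank without single libraries, as given above. In untreated 5xFAD against WT hippocampus, the count of 5 became 9 with DESeq2, 9 without untreated replicate 3 and light-treated replicate 2, 0 when a 2-fold change was required, and 3 to 9 when a replicate was left out. In light-treated against untreated 5xFAD hippocampus, 0 became 8 with DESeq2, 1 without the filter, 1 with limma on log2(FPKM + 1), and 0 to 5 when a replicate was left out. Against WT, light-treated hippocampus went from 0 to 2 with DESeq2 and to 4 with only the compared groups. In meninges, DESeq2 called 1 in light-treated against untreated 5xFAD and 4 against WT, the latter with 0 to 2 when a replicate was left out. The interaction of light and tissue went from 3 to 5 with DESeq2, 0 with limma on log2(FPKM + 1), 1 with limma on log2(FPKM + 0.1), 1 with only the compared groups and 0 to 3 when a replicate was left out. The difference in the ratio of Grin2a to Grin2b between light-treated 5xFAD and WT, 0.02 by FPKM, was -0.10 by counts.

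Within hippocampus, same-numbered samples of different groups correlated in their deviations by -0.268 to 0.101. The values were -0.328 to 0.266 within meninges and -0.036 to 0.013 within mLECs. Pairs with different numbers gave -0.318 to 0.322, -0.348 to 0.446 and -0.044 to 0.038 in that order. Same-numbered samples of different tissues were not compared, so whether they came from the same mouse was not tested. The fits of the 22 samples treat them as independent. With the replicate block, 6, 0 and 0 receptor genes were called in the 3 hippocampal comparisons, 0 in the meningeal and mLEC ones, 35 between the tissues and 0 in both interactions. The meningeal libraries were shallower and their receptor genes were low. The biological coefficient of variation was 0.350 in meninges, against 0.198 in hippocampus. The part of depth, spread and group size in the lack of meningeal calls was not tested. The mLEC libraries were as deep as the hippocampal ones, and their spread between libraries was far wider.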
